A study of Mus musculus with 6 samples.

Results

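The Eph receptors and their ephrin ligands, the Slits and their Robo receptors, and the netrins, netrin-G proteins and netrin receptors are the genes described here, in sensory neurons after nerve injury. They were taken by symbol from the authors' isoform table, and the values of all isoforms that carry the same gene symbol were added up. This gave 36 genes with 154 isoforms, out of 17022 gene names with 60744 isoforms. A further 4 genes of the same families (Epha1, Robo3, Ntn3 and Dcc) were not analysed here.

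These families steer growing axons. Ephrins are membrane-bound ligands, so an Eph receptor meets them mainly on a touching cell, and both the Eph and the ephrin side can signal. Slits are secreted proteins that repel axons through Robo receptors and, in sensory neurons, also promote axon branching. Secreted netrins attract axons through Dcc and neogenin and repel them through Unc5 receptors, whereas netrin-G proteins are tethered to the membrane by a lipid anchor and bind netrin-G ligands at synapses and not these receptors.

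The RNA came from neurons of lumbar dorsal root ganglia 3, 4 and 5, where sensory neurons have their cell bodies. These neurons were cut out of frozen ganglia by laser microdissection 7 days after surgery on the same side, and the mice were adult C57Bl/6 males whose labelled age was 4 to 6 weeks. In the crush group (3 libraries) the sciatic nerve had been crushed for 10 seconds, and in the sham group (3 libraries) it had been exposed for 10 seconds and left uncrushed. The sources used here do not say whether each library came from its own animals or shared them with another, so p-values measure only how far these samples spread, and that spread may be technical. Values were FPKM, that is, fragments set by the authors relative to transcript length and to the mapped fragments of a library, and the depth of the libraries was unknown. Since RNA was measured in bulk, fewer neurons of a type and less RNA per neuron cannot be told apart.

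Markers were read for the sample as a whole. Of 14 sensory neuron markers tested with limma, 0 were called and 3, all lower after crush, were at an unadjusted p under 0.05, a level reached by 17.6% of all genes tested. Their sum was 6340 to 7170 FPKM after crush and 5827 to 7835 FPKM after sham surgery. Macrophage markers were higher after crush for 10 of 11 tested, with sums of 152 to 169 FPKM after crush and 71.1 to 83.1 FPKM after sham surgery. The sum of fibroblast markers was 192 to 205 FPKM after crush and 128 to 168 FPKM after sham surgery, with 0 of 9 called and 6, all higher after crush, at an unadjusted p under 0.05. Sums of glial markers (1721 to 1873 FPKM after crush and 1710 to 1964 FPKM after sham surgery) and endothelial markers (34.5 to 38.5 FPKM after crush and 34.5 to 41.2 FPKM after sham surgery) overlapped. The endothelial markers include Robo4, which is itself among the 36 guidance genes. No marker was at 0 in any library. The part of these cells in the guidance gene values was not tested. Library sham 2 stood apart. On the log2 scale its correlation over genes was 0.978 with sham 1 and 0.981 with sham 3, against 0.996 between sham 1 and sham 3 and 0.993 to 0.996 among the crush libraries, and it was the lowest of 6 for 16 of the 36 guidance genes but for 6 of the 23 that averaged at least 1 FPKM.

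Of the 36 guidance genes, 23 averaged at least 1 FPKM across all libraries and were tested as log2(FPKM + 1) with limma, with Benjamini-Hochberg adjustment over all 12289 genes tested. At an adjusted p under 0.05, 2 fell after crush and 0 rose. The genes that fell were Ntng2, which encodes netrin-G2, and Unc5a, a receptor for netrin. The share called was 8.7% of the guidance genes tested, against 3.78% of all genes tested (464 genes, 2.38% higher and 1.39% lower after crush). At an unadjusted p under 0.05 limma found 9 of the 23, 6 of them lower after crush, against 17.6% of all genes tested (8.97% lower after crush). The median log2 change of the 23 was -0.031, against -0.015 for all genes tested, with 9 changes above 0 and 14 below. The other 13 genes lay below the filter and were not tested. These shares and medians are given as a description of the list.

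**Figure D1:**
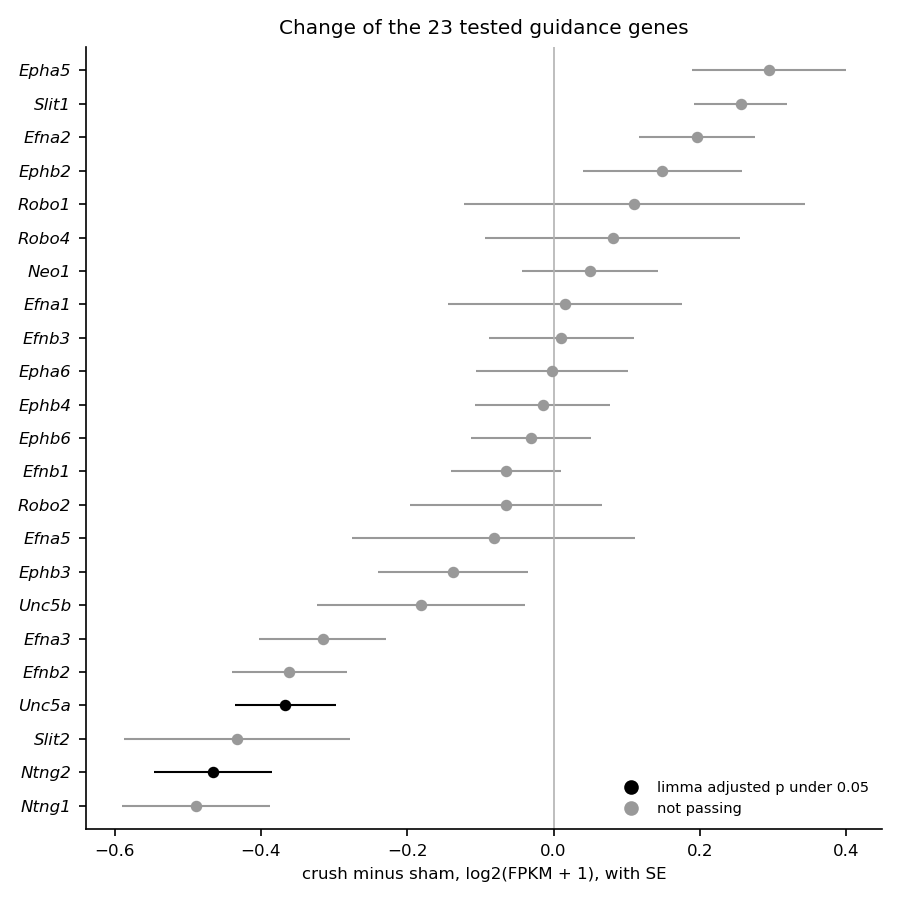
Log2 change of the 23 tested guidance genes, crush minus sham on the log2(FPKM + 1) scale, with the SE from limma as horizontal lines (3 libraries a group). Black points, Ntng2 at -0.47 and Unc5a at -0.37, passed an adjusted p under 0.05, and grey points from -0.49 (Ntng1) to 0.29 (Epha5) did not.

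The promoters of Ntng2 and Unc5a are printed here from RefSeq (assembly GRCm38.p6, 250 bases before and 50 bases after the annotated start), to show what sequence lies at the starts of the genes that passed the test. In the Ntng2 promoter (chr2:29248050-29248349, minus strand) capitals mark the match to the CCAAT box, read on the opposite strand, and in the Unc5a promoter (chr13:54949161-54949460, plus strand) capitals mark matches to the GC box GGGCGG, also read on the opposite strand.
Ntng2: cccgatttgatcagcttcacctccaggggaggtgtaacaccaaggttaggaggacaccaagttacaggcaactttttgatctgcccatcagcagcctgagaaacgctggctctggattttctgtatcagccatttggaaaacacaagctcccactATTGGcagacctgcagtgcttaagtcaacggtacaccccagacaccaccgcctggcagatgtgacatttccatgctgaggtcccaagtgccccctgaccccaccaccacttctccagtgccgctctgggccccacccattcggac
Unc5a: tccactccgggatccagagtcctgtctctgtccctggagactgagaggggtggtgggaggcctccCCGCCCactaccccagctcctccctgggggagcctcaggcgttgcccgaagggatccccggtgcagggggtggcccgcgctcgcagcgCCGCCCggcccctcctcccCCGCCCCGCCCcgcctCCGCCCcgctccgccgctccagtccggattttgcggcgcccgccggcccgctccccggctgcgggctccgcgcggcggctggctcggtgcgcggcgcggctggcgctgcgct
The Ntng2 window held 55.0% G and C and 6 CpG dinucleotides, near the medians of 52.7% and 7 over 32851 RefSeq mouse promoters of this length. The Unc5a window held 78.3% G and C and 37 CpG dinucleotides, and 98.2% of promoters had a lower share of G and C. Of 6 motifs searched on both strands, Ntng2 held 1 CCAAT (found in 37.4% of all promoters) and Unc5a held 5 GGGCGG, some of them overlapping (35.7%). Neither window held the AP-1 motif TGANTCA (7.81% of promoters), the CRE motif TGACGTCA (1.79%), the STAT motif TTCNNNGAA (8.30%) or TATAAA (13.6%). These matches describe letters in the reference sequence, and the starts that these neurons used were not compared with them because the files use another build.

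Of the netrin-G genes, which encode lipid-anchored synaptic proteins, Ntng2 fell after crush and Ntng1 did not pass the test. Ntng2 (mm9 chromosome 2, 29049252 to 29109452, minus strand) had 18.2, 19.0 and 20.5 FPKM in crush libraries 1 to 3, against 29.2, 26.3 and 25.3 FPKM in sham libraries 1 to 3. All 3 crush values lay below all 3 sham values, with a gap between 20.5 and 25.3 FPKM. The mean was 19.2 ± 1.19 FPKM after crush and 27.0 ± 2.04 FPKM after sham surgery (SD, n = 3 each), a ratio of 0.713, and the log2 change was -0.47 with an SE of 0.081 (limma, adjusted p = 0.0315). The call was lost when any library but sham 2 was left out (adjusted p 0.0836 to 0.145).

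Ntng1, which encodes netrin-G1, had 5.97, 5.00 and 4.80 FPKM in the crush libraries and 8.51, 7.05 and 7.74 FPKM in the sham libraries. Again no crush value reached a sham value. Its log2 change of -0.49 (SE 0.10) was as large as that of Ntng2, but it missed the threshold (limma, adjusted p = 0.0521). Ntng1 passed with quantile normalization (limma, adjusted p = 0.0376), with sample weights (0.0130) and without sham 2 (0.0168). In the other 13 of the 16 alternatives that held this gene it did not pass (limma, adjusted p up to 0.198). Summed, netrin-G transcripts came to 24.0 to 25.3 FPKM after crush, against 33.1 to 37.8 FPKM after sham surgery, and Ntng2 supplied 75.3% to 81.0% of the sum. Lrrc4c, the netrin-G ligand that binds netrin-G1, had a log2 change of -0.19 (SE 0.11, limma adjusted p = 0.413).

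Secreted netrins were scarce. Ntn4, the more abundant, had 0.983, 0.609 and 0.761 FPKM after crush and 0.857, 0.551 and 0.809 FPKM after sham surgery, and Ntn1 stayed between 0.139 and 0.371 FPKM in all 6 libraries. Both were below the filter and were not tested.

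Among netrin receptors, Unc5a (mm9 chromosome 13, 55050860 to 55107672, plus strand) mediates repulsion by netrin. It had 2.86, 2.70 and 2.83 FPKM in the crush libraries, against 3.93, 3.71 and 4.05 FPKM in the sham libraries. The groups did not overlap, and the values within each group lay close together. The mean was 2.80 ± 0.0875 FPKM after crush and 3.90 ± 0.175 FPKM after sham surgery (SD, n = 3 each), a ratio of 0.718, and the log2 change was -0.37 with an SE of 0.069 (limma, adjusted p = 0.0389). The call was lost without the filter on low values (adjusted p = 0.0553), with upper-quartile scaling (0.0653), with reference isoforms only (0.434), and when any library but sham 2 was left out (0.128 to 0.167). Of the Unc5a exon bases, 35.8% overlap exons of Hk3, a hexokinase gene on the opposite strand. The library kit was not stated to mark strand, so reads from the overlap cannot be assigned. Hk3 itself had 1.301, 1.249 and 1.582 FPKM after crush and 1.195, 1.866 and 1.008 FPKM after sham surgery, with overlapping groups and a log2 change of 0.027 (limma, adjusted p = 0.949).

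Neogenin, encoded by Neo1, was the most abundant netrin receptor and also binds repulsive guidance molecules. It had 5.50, 5.10 and 5.82 FPKM after crush and 4.61, 5.44 and 5.74 FPKM after sham surgery. The groups overlapped, the log2 change was 0.050 (SE 0.093, limma adjusted p = 0.839), and in sham 1 the authors' status for all 6 Neo1 isoforms was FAIL. Unc5b had a log2 change of -0.18 (limma, adjusted p = 0.585). Unc5c reached 0.999 FPKM and Unc5d 0.254 FPKM at most, and neither was tested. The 5 receptors together came to 11.2 to 12.07 FPKM after crush and 12.09 to 13.8 FPKM after sham surgery, adjacent ranges that did not overlap. Most of the difference between the means of this sum (11.6 and 12.8 FPKM) lay in Unc5a, with means of 2.80 and 3.90 FPKM.

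**Figure D2:**
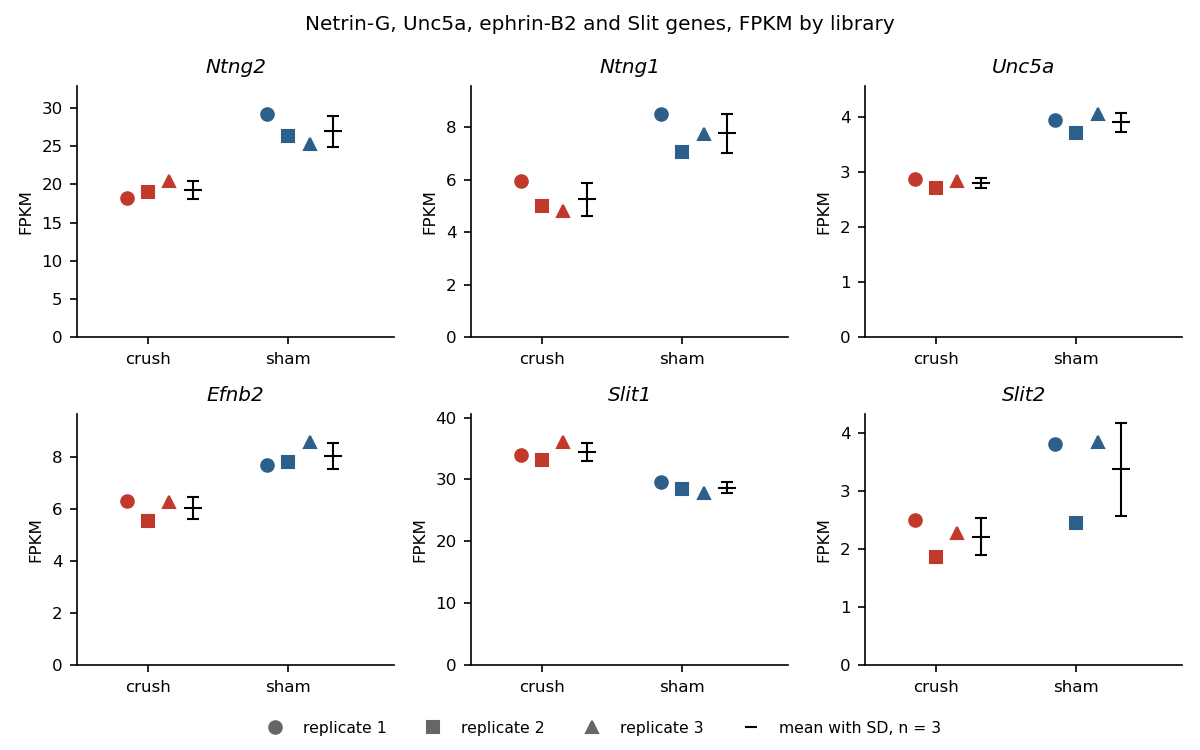
FPKM of Ntng2, Ntng1, Unc5a, Efnb2, Slit1 and Slit2 in each library, with crush on the left and sham on the right of each panel. Marker shape gives the library number, and the black bar gives the mean with its SD (n = 3). Crush values of Ntng2, Ntng1, Unc5a and Efnb2 all lie below their sham values, those of Slit1 all lie above, and those of Slit2 overlap with sham 2 at 2.45 FPKM.

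Slit1 was the most abundant guidance gene. It encodes a secreted repellent of the Robo receptors and had 34.0, 33.2 and 36.1 FPKM after crush, against 29.6, 28.5 and 27.9 FPKM after sham surgery. Every crush library was above every sham library. The difference was small, with 34.4 ± 1.504 FPKM after crush and 28.7 ± 0.866 FPKM after sham surgery (SD, n = 3 each), and the log2 change of 0.26 (SE 0.064) did not pass (limma, adjusted p = 0.0874). In sham 2 and sham 3 the authors' status for all 7 Slit1 isoforms was FAIL, and the values in those libraries rest on such estimates.

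Slit2, a second ligand of the same receptors, had 2.50, 1.87 and 2.28 FPKM after crush and 3.82, 2.45 and 3.86 FPKM after sham surgery. Sham 2 lay inside the crush range and the other sham libraries above it. The log2 change was -0.43 (SE 0.15, limma adjusted p = 0.212), and the status of all 11 Slit2 isoforms was FAIL in sham 1. Slit3 never exceeded 0.286 FPKM. Slit1 supplied 87.8% to 94.4% of the Slit sum, which was 35.2 to 38.4 FPKM after crush and 31.3 to 33.4 FPKM after sham surgery.

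Robo2 was the most abundant Slit receptor, at 21.1, 21.5 and 17.6 FPKM after crush and 24.2, 17.6 and 21.7 FPKM after sham surgery. The lowest crush library and the lowest sham library were nearly equal, and the groups overlapped (log2 change -0.065, SE 0.13, limma adjusted p = 0.853). In crush 1, crush 2 and sham 1, 8 of its 10 isoforms had status FAIL. Robo1, another neuronal receptor of Slits, had 3.57, 3.40 and 2.87 FPKM after crush and 3.44, 1.70 and 4.16 FPKM after sham surgery, with a log2 change of 0.11 (SE 0.23, limma adjusted p = 0.862). The Robo1 sum takes in 1 isoform that carries the name Robo1 and a reference identifier but lies at the Robo2 locus. Without that isoform the 7 Robo1 isoforms summed to 2.53, 2.37 and 2.08 FPKM after crush and 2.84, 1.63 and 3.36 FPKM after sham surgery, which also overlapped. The direction of the means then turned, with 2.32 FPKM after crush and 2.61 FPKM after sham surgery, against 3.28 and 3.10 FPKM for the full sum. The isoform at the Robo2 locus averaged 0.956 FPKM after crush and 0.488 FPKM after sham surgery. Robo4, a receptor of endothelial cells, ranged from 1.201 to 1.999 FPKM after crush and from 1.065 to 2.042 FPKM after sham surgery.

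Ephrin ligands were represented mainly by Efna1 and the B-type ephrins. Efna1, a lipid-anchored A-type ephrin, had 18.4, 20.6 and 20.8 FPKM after crush and 16.7, 25.8 and 17.6 FPKM after sham surgery. Sham 2 was the highest of all libraries and the other sham libraries the lowest, so that the means were alike, with a log2 change of 0.016 (SE 0.16, limma adjusted p = 0.976). Efna2 had 1.83, 1.76 and 1.73 FPKM after crush and 1.26, 1.51 and 1.51 FPKM after sham surgery, all crush values above all sham values (log2 change 0.20, SE 0.079, limma adjusted p = 0.262). Efna3 lay the other way, at 0.904 to 1.14 FPKM after crush and 1.38 to 1.67 FPKM after sham surgery, and did not pass (log2 change -0.32, limma adjusted p = 0.111). Efna5 ranged from 2.99 to 3.70 FPKM after crush and from 2.42 to 4.80 FPKM after sham surgery, and Efna4 stayed under 0.595 FPKM.

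Efnb2 encodes ephrin-B2, a transmembrane ligand of EphB receptors that also signals into its own cell. It had 6.28, 5.53 and 6.28 FPKM in the crush libraries and 7.69, 7.81 and 8.58 FPKM in the sham libraries. The groups were separate, and the log2 change of -0.36 (SE 0.079) came close to the threshold without passing it (limma, adjusted p = 0.0606). Efnb1 had nearly the same mean level, 6.28 ± 0.158 FPKM after crush and 6.63 ± 0.516 FPKM after sham surgery (SD, n = 3 each), with overlapping groups and a log2 change of -0.065 (limma, adjusted p = 0.729). Efnb3 was close to 1 FPKM in both groups. The B-type ephrins summed to 13.1 to 13.6 FPKM after crush and 14.6 to 16.8 FPKM after sham surgery, whereas the A-type sums overlapped (25.5 to 27.0 FPKM after crush and 24.7 to 31.1 FPKM after sham surgery).

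Among Eph receptors, Ephb6, which lacks kinase activity, was the most abundant. It had 12.3, 11.2 and 10.2 FPKM after crush and 11.0, 11.9 and 11.4 FPKM after sham surgery, with the sham values inside the crush range (log2 change -0.031, SE 0.082, limma adjusted p = 0.894). Ephb6 supplied 62.1% to 65.8% of the EphB sum. Ephb2, a receptor of ephrin-B ligands, had 1.39, 1.01 and 1.37 FPKM after crush and 0.832, 1.15 and 1.12 FPKM after sham surgery, with overlapping groups (log2 change 0.15, SE 0.11, limma adjusted p = 0.551). Ephb3 and Ephb4 had log2 changes of -0.14 and -0.015, and Ephb1 had 0.140 to 0.227 FPKM after crush and 0.233 to 0.652 FPKM after sham surgery.

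Epha5, a receptor of A-type ephrins, was the most abundant of its class and showed the largest positive change of the 23 genes. It had 3.16, 2.92 and 3.83 FPKM after crush, against 2.74, 2.24 and 2.53 FPKM after sham surgery. All crush values were higher, with a narrow gap between 2.92 FPKM in crush 2 and 2.74 FPKM in sham 1. The log2 change of 0.29 (SE 0.11) did not pass (limma, adjusted p = 0.212). Epha6 had means of 1.96 FPKM after crush and 1.97 FPKM after sham surgery. The other 6 A-type receptors (Epha2, Epha3, Epha4, Epha7, Epha8 and Epha10) had means below 1 FPKM, and the highest value among them was 1.098 FPKM.

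**Figure D3:**
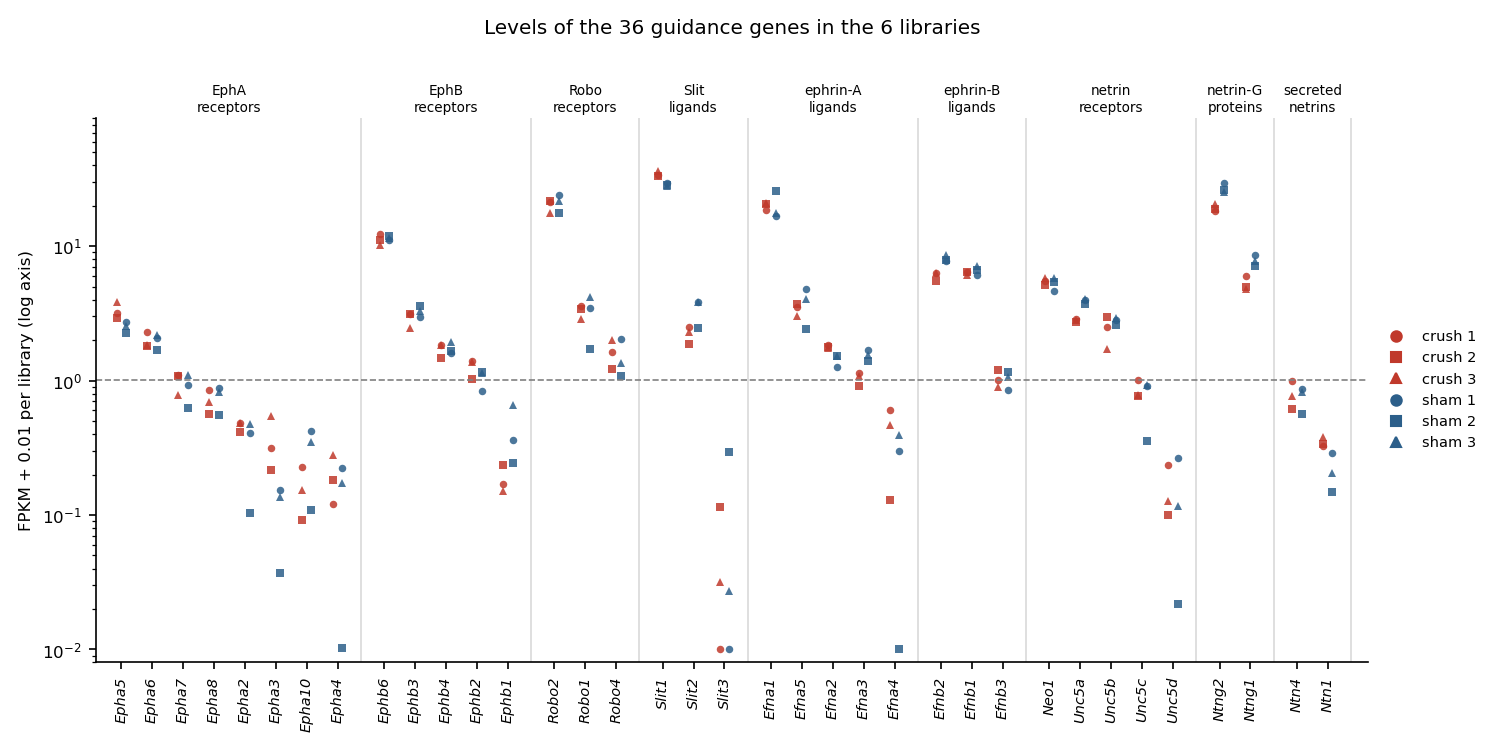
FPKM (plus 0.01, log axis) of all 36 guidance genes in each library, arranged by role and by mean level, crush in red left of sham in blue, with the library number as marker shape. The dashed line is 1 FPKM, the mean that a gene needed in order to be tested. Each of 5 genes (Slit1, Ntng2, Robo2, Efna1 and Ephb6) has a mean above 10 FPKM.

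By mean over the 6 libraries the order was Slit1 at 31.6 FPKM, Ntng2 at 23.1, Robo2 at 20.6, Efna1 at 20.0, Ephb6 at 11.3, Efnb2 at 7.03, Ntng1 at 6.51, Efnb1 at 6.46 and Neo1 at 5.37 FPKM, and all other guidance genes had means under 3.6 FPKM. Neighbours in this order had overlapping ranges except Efna1 and Ephb6, Ephb6 and Efnb2, Efnb1 and Neo1, and, far down, Epha8 and Epha2. The median level of the 23 tested genes was 3.19 FPKM, against 8.75 FPKM for all genes tested. Summed over all 36 genes, guidance transcripts came to 162 to 167 FPKM after crush and 168 to 178 FPKM after sham surgery, ranges that did not overlap. The mean of this sum was 164 FPKM after crush and 174 FPKM after sham surgery. Netrin-G transcripts alone had means of 24.5 and 34.7 FPKM, so the whole sum fell by no more than the netrin-G genes did. Among the 23 tested genes the groups did not overlap for 8, with the crush libraries above sham for 3 and below for 5. Over all genes tested the groups did not overlap for 26.3%, with crush above for 12.2% and below for 14.1%.

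At the level of single isoforms, 36 of the 154, in 15 genes, averaged at least 1 FPKM and were tested. None passed limma's test over 24485 isoforms at an adjusted p under 0.05, and of all isoforms tested 0.0613% passed. At an unadjusted p under 0.05 there were 6, of which 5 were lower after crush, against 9.12% of all isoforms. The smallest adjusted p was 0.254, for the Robo2 isoform TCONS_00050654, with 2.87, 2.36 and 1.74 FPKM after crush and 1.15, 0.990 and 0.770 FPKM after sham surgery. Crush was higher throughout (log2 change 0.74, SE 0.18), and the isoform had status FAIL in 3 libraries. Next came both tested Ntng1 isoforms. TCONS_00085051 averaged 2.06 ± 0.352 FPKM after crush and 3.25 ± 0.302 FPKM after sham surgery, and TCONS_00084000 averaged 1.68 ± 0.392 FPKM after crush and 2.89 ± 0.332 FPKM after sham surgery (SD, n = 3 each). Their log2 changes of -0.48 and -0.55 had limma adjusted p of 0.331 and 0.332.

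All 5 tested isoforms of Ntng2 had log2 changes below 0, and none passed on its own. None of its 8 isoforms carried a reference identifier. The most abundant, TCONS_00074492 with 8 exons, held 34.1% of the gene and had 5.15, 7.09 and 7.23 FPKM after crush and 8.07, 11.4 and 8.32 FPKM after sham surgery. The groups did not overlap, and the log2 change was -0.45 (SE 0.18, limma adjusted p = 0.535). The other 4 tested isoforms had log2 changes of -0.51, -0.23, -0.26 and -0.58. For Unc5a, the reference isoform TCONS_00031504 held 54.0% of the gene, with means of 1.60 ± 0.418 FPKM after crush and 2.01 ± 0.711 FPKM after sham surgery (SD, n = 3 each). The assembled isoform TCONS_00031503 held 31.2%, with a log2 change of -0.30 beside -0.19 for the reference isoform. Both tested Unc5a isoforms overlapped between groups, although the gene sum, which takes in 3 isoforms, did not.

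Whether isoforms of a gene differed in their change was tested with limma's diffSplice F test for 10 guidance genes. At an adjusted p under 0.05 it called 0 of them, against 0.445% of 6746 genes, and 1 at an unadjusted p under 0.05, against 5.38% of all genes in this test. That gene was Efna5 (limma adjusted p = 0.845, unadjusted 0.0362). Its reference isoform TCONS_00054165 averaged 1.89 FPKM after crush and 1.88 FPKM after sham surgery, whereas TCONS_00054164 averaged 0.484 FPKM after crush and 1.60 FPKM after sham surgery. Ephb6 and Efnb2 came next, at unadjusted p of 0.369 and 0.502. Of the Efnb2 isoforms, the reference isoform TCONS_00125278 averaged 2.04 ± 0.459 FPKM after crush and 3.33 ± 0.699 FPKM after sham surgery (SD, n = 3 each; log2 change -0.51, limma adjusted p = 0.470). TCONS_00128458 averaged 1.96 FPKM after crush and 2.67 FPKM after sham surgery (log2 change -0.25, SE 0.36). TCONS_00125277 averaged 2.04 FPKM after crush and 2.03 FPKM after sham surgery (log2 change 0.053, SE 0.35). For both, the groups overlapped.

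**Figure D4:**
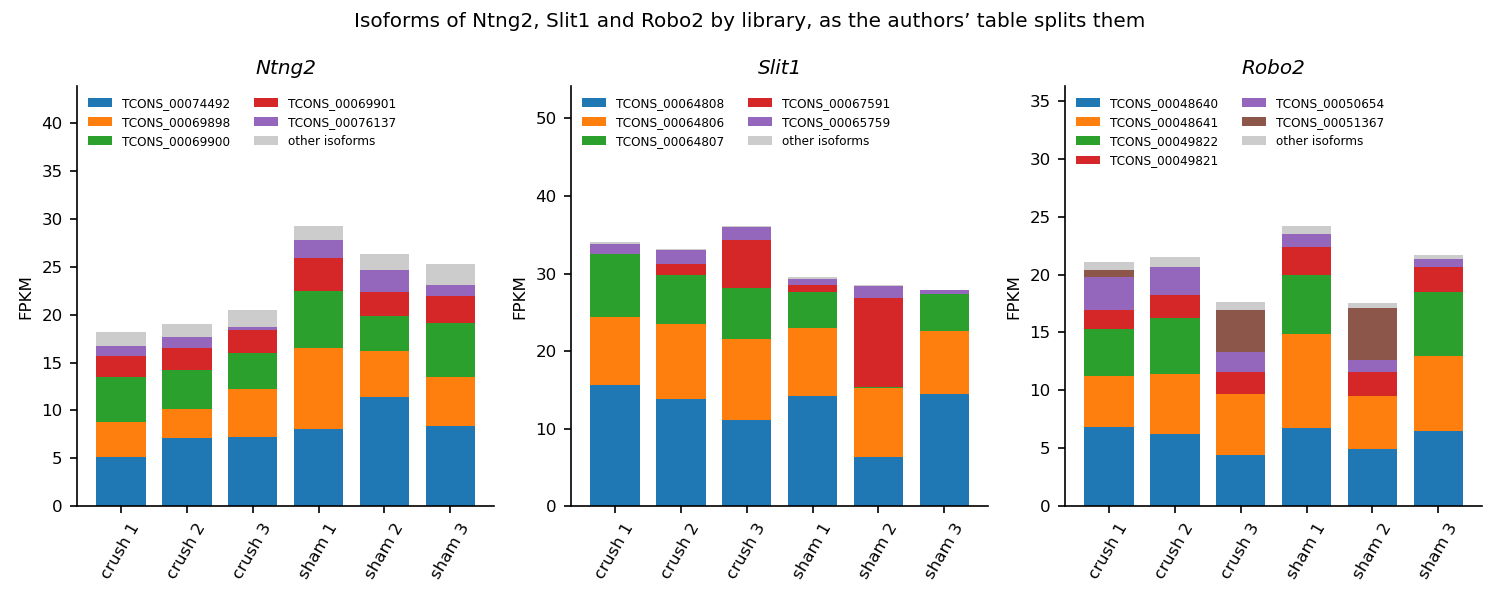
FPKM of Ntng2, Slit1 and Robo2 in each library (crush 1 to 3, then sham 1 to 3), split into the tested isoforms (colours) and all others (grey). The Ntng2 bars are lower after crush in total, and in Slit1 and Robo2 the makeup of sham 2 differs from that of sham 1 and sham 3. All Slit1 isoforms had status FAIL in sham 2 and sham 3, and 8 of 10 Robo2 isoforms in crush 1, crush 2 and sham 1.

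In 2 genes, singled out after their values were seen, the split between isoforms differed between libraries of the same group. The Slit1 sums of a group stayed close, whereas in Robo2 the libraries with the other split, crush 3 and sham 2, had the lowest sums. The Slit1 isoform TCONS_00064807 had 8.20, 6.32 and 6.57 FPKM after crush and 4.63, 0.117 and 4.80 FPKM after sham surgery. TCONS_00067591, also of Slit1, had 0, 1.40 and 6.16 FPKM after crush and 0.887, 11.5 and 0.00741 FPKM after sham surgery. Sham 2 was thus listed with almost none of the one and the most of the other, but all 7 Slit1 isoforms had status FAIL in sham 2 and sham 3. In Robo2, TCONS_00049822 had 4.10, 4.83 and 0.0326 FPKM after crush and was listed at 5.07, 0 and 5.60 FPKM after sham surgery, and TCONS_00051367 was high in crush 3 (3.61 FPKM) and sham 2 (4.55 FPKM) and at most 0.533 FPKM elsewhere. Both of these Robo2 isoforms had status FAIL in crush 1, crush 2 and sham 1. A status other than OK was given in at least 1 library for 33 isoforms, in Neo1, Robo1, Robo2, Slit1 and Slit2, and 26 of these had it in sham 1.

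The authors' deposited table also holds a test of the pooled groups per isoform. There, 69 of the 154 isoforms had status OK in the authors' deposited table, and 13 were marked significant. That is 18.8% of the guidance isoforms with status OK, against 15.1% of all 25544 isoforms with status OK in the authors' deposited table. Of these 13, 0 averaged at least 1 FPKM across libraries and 4 averaged at least 0.5 FPKM, and 5 were ratios to a group listed at 0 in the authors' deposited table. The Epha5 isoform TCONS_00103024 had 0.996 FPKM after crush and 0.555 FPKM after sham surgery in the authors' deposited table. Its log2 fold change there was 0.84 (q = 0.038), and by library all its crush values were above all its sham values. The Epha6 isoform TCONS_00048622 had 0.377 FPKM after crush and 0.920 FPKM after sham surgery there (log2 fold change -1.29, q = 4.21e-09). By library its groups overlapped, at 0.396, 0.719 and 0.509 FPKM after crush and 1.03, 0.399 and 1.12 FPKM after sham surgery. The Robo4 isoforms TCONS_00132265 and TCONS_00138350 were marked in opposite directions in the authors' deposited table (log2 fold change -1.50 and 6.59). By library the groups overlapped for both. None of the 28 isoforms of Ntng2, Ntng1, Slit1, Unc5a and Efnb2 had status OK in the authors' deposited table, so it gives no test of them.

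Other genes of these pathways (adaptors, effectors and co-receptors) were taken from a list of 71, of which 68 were in the table and 66 were tested. Of these, 3 rose and 1 fell, a share called of 6.06%, against 3.78% of all genes tested. Arhgef15 encodes ephexin-5, a guanine nucleotide exchange factor that acts downstream of Eph receptors, and had 4.67, 5.20 and 5.96 FPKM after crush and 3.45, 3.16 and 3.65 FPKM after sham surgery. Anks1b, a relative of the Eph-binding adaptor Anks1, had 13.2, 12.9 and 14.1 FPKM after crush and 10.3, 7.82 and 8.92 FPKM after sham surgery. All crush values of both genes were above all sham values (log2 changes 0.50 and 0.53, limma adjusted p = 0.0416 and 0.0414).

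Flrt3, a membrane protein that binds Unc5 receptors, showed a larger difference, with 28.1, 25.0 and 29.4 FPKM after crush and 11.0, 9.78 and 9.61 FPKM after sham surgery. The groups were far apart (log2 change 1.35, SE 0.087, limma adjusted p = 0.0045). By pathway, 2 of 24 tested Eph-ephrin partners rose and 0 fell, 0 of 17 Slit-Robo partners passed (2 at an unadjusted p under 0.05, against 17.6% of all genes tested), and 1 of 25 netrin partners rose and 1 fell. The median log2 changes of these lists were 0.079, 0.014 and -0.013, against -0.015 for all genes tested.

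The calls depended on which libraries entered the fit. Without sham 2, limma called 6 guidance genes, with Ntng2, Unc5a, Ntng1, Efnb2 and Slit2 lower after crush and Slit1 higher, among 1180 of 12302 genes in all. When any other library was left out, limma called 0 guidance genes and 53 to 130 genes in all. The direction of Ntng2 and Unc5a did not change, with a log2 change of -0.51 to -0.41 for Ntng2 and -0.40 to -0.34 for Unc5a over all 6 omissions. Of the partner genes that rose, Flrt3 was called in every omission, Anks1b without sham 1 or sham 2, and Arhgef15 only without sham 2. Arhgef15 was also not called without the filter, and neither Arhgef15 nor Anks1b was called with reference isoforms only.

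**Figure D5:**
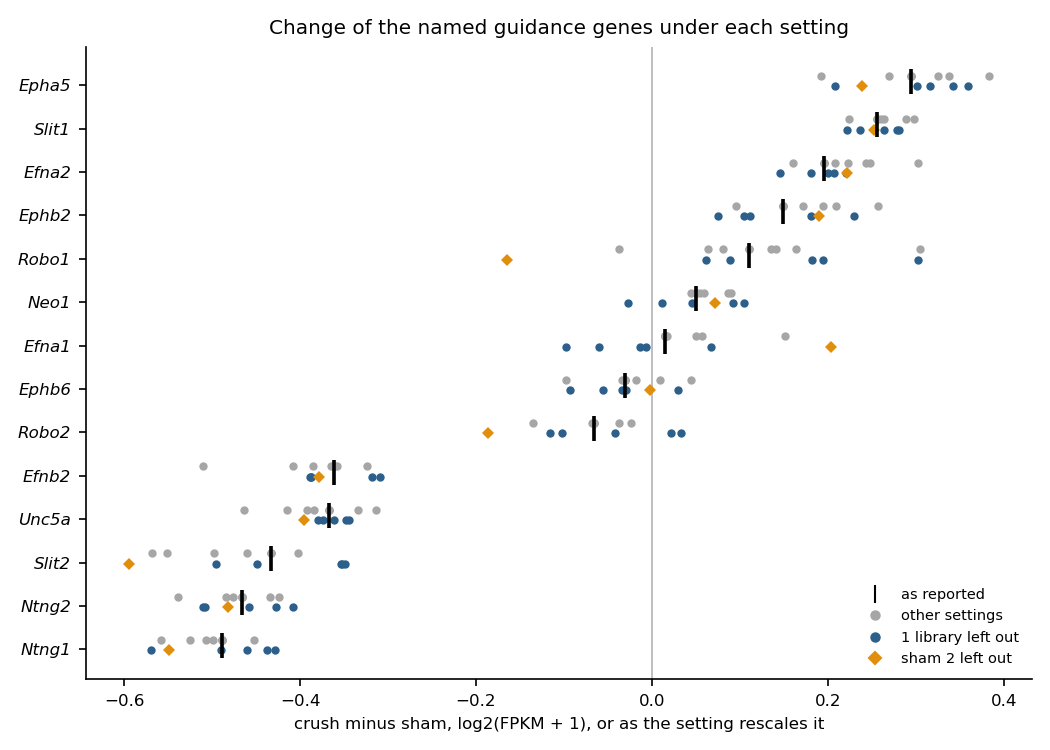
Log2 change (crush minus sham) of the 14 named guidance genes under each processing setting. The black bar is the reported value, grey points are other settings, blue points leave out 1 library and the orange diamond leaves out sham 2. The points of Ntng1, Ntng2, Slit2, Unc5a and Efnb2 all lie below 0 and those of Epha5, Slit1, Efna2 and Ephb2 all lie above it, whereas Robo1, Neo1, Efna1, Ephb6 and Robo2 lie on both sides.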

How the data were processed

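Polyadenylated RNA of the 3 crush and 3 sham libraries was, per the labels' protocols, barcoded, mixed and run on 3 lanes. The submitters' processing notes name build mm9 and the tools Cuffdiff 1.2.1, Cufflinks 1.1.0 and TopHat 1.3.2. The authors' deposited table gives FPKM per isoform and library with a status, and the authors' p-value, q-value and log2 fold change per isoform, the last treated as a score because it holds infinite ratios. The authors' exon file gave positions.

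Gene symbols were taken after removing the isoform suffix, and FPKM was summed per symbol. Features averaging at least 1 FPKM (genes or isoforms) were tested as log2(FPKM + 1), which understates changes of low genes, with limma 3.58.1 in R 4.3.3 (moderated variance with a trend, 2-sided, threshold 0.05 after Benjamini-Hochberg adjustment over all features). Every log2 change in the text is crush minus sham. An exact permutation test of 3 against 3 cannot give a 2-sided p below 0.1 and was not used. The scripts were tested on simulated data. FPKM keeps no read counts, so depth is unknown and counting error could not be given. For tested guidance isoforms the authors' interval reached, in the median, 27.9% to 31.7% of the value to either side. Isoforms with status FAIL were listed with an interval of no width and entered this median. It therefore understates the width in libraries that held such isoforms.

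The guidance genes and the lists of partners and markers were chosen with earlier results of these data known, so they give no independent support. The values of 1 partner gene are not reported here. Values in every library are given for genes called, for the most abundant gene of each of 9 role lists, and for the 5 largest changes in each direction. For isoforms, the 3 with the smallest adjusted p, the 3 genes with the smallest p for an isoform difference, and the most abundant isoforms of called genes are given. Alternatives were 2 other pseudocounts (0.1 and 0.5), no filter, a minimum mean of 5 FPKM, upper-quartile scaling, quantile normalization, no trend, sample weights, reference isoforms only, isoforms with status OK only, a replicate block, and each library left out. Promoters came from RefSeq (GRCm38.p6), with 32 of the 36 genes matched. Tables and plots used matplotlib 3.10.9, numpy 2.4.6, pandas 2.3.3 and Python 3.11.15.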

Additional observations from a re-analysis of the deposited data

How the results depend on the processing

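Against 2 guidance genes called as reported, limma called 1 without a filter, 1 with a mean of at least 5 FPKM and 1 with upper-quartile scaling (Ntng2 each time). It called 3 with quantile normalization (Ntng1 added) and 7 with sample weights. The count was 0 with reference isoforms only, 0 with the replicate block, and 0 to 6 when 1 library was left out. With a mean of at least 5 FPKM only 9 guidance genes were tested, and Unc5a was not among them. With reference isoforms only 11 were tested, and Ntng2, which has no reference isoform, was not among them. The adjusted p of Ntng2 ranged from 0.00335 to 0.147 and that of Unc5a from 0.00678 to 0.434, with 0.147 and 0.162 under the replicate block. Against 4 partner genes, the counts were 8 with sample weights, 1 with reference isoforms only, 1 with the replicate block (Flrt3) and 1 to 8 with 1 library left out. Against 464 genes in all, they were 295 with a mean of at least 5 FPKM (fewer genes tested) and 1429 with sample weights. Reference isoforms only gave 67 (fewer genes tested), the replicate block 50, and leaving out 1 library 53 to 1180. Isoforms of guidance genes called were 4 with sample weights and 0 in every other setting run, and the isoform-difference test called 0 in each. The replicate numbers were not shown to pair the samples, since deviations of same-numbered libraries correlated at 0.372, -0.309 and -0.486 for numbers 1 to 3. The log2 change of Ephb6 was 0.0091 with upper-quartile scaling and 0.045 with sample weights, and that of Robo1 was -0.038 with sample weights. Leaving out 1 library gave log2 changes of -0.098 to 0.20 for Efna1, -0.093 to 0.030 for Ephb6, -0.027 to 0.10 for Neo1, -0.17 to 0.30 for Robo1 and -0.19 to 0.033 for Robo2. The median change of all genes was 0.022 with upper-quartile scaling, against -0.015 as reported. Apart from fewer genes or libraries, the cause of these differences was not tested. Unknown depth limits all values near 1 FPKM.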
